A study of Mus musculus with 24 samples.

Results

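The enzymes that break down glucose and feed its carbon to the citric acid cycle were followed through the day in the mouse ventral tegmental area (VTA), the midbrain region that holds the dopamine neurons of reward. The set lists 39 genes of glycolysis, of pyruvate entry into the mitochondrion and of the cycle. A gene was taken as measured where a row of the array carried its symbol alone, and the row with the highest mean was used where several did. This gave 35 of 39 genes, namely 16 of 19 of glycolysis, 6 of 7 of pyruvate entry and 13 of 13 of the cycle. Gapdh had only rows shared with other genes (25 of them), and Gpi1, Eno1 and Mpc2 were not analysed here. The array holds 35556 probe sets, of which 23410 carry a gene and are called transcripts here.

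The study asked which VTA transcripts follow a 24-h rhythm. Male wild-type C57BL/6N mice, untreated and 10 to 12 weeks old, were kept on 12 h of light and 12 h of darkness. They were killed at ZT0 (zeitgeber time, hours after lights on), ZT4, ZT8, ZT12, ZT16 and ZT20, with 4 mice at each time. Each mouse was hybridized to an array of its own, 24 in number. The labels put the times 4 h apart, while the methods of the study give a different interval, and the labels are followed. Punches from 0.5-mm sections also take in neurons outside the dopamine group, glia and vessels, so that in such bulk tissue fewer cells of a type and less RNA per cell cannot be told apart.

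Values are log2 expression levels normalized by the authors with RMA (robust multi-array average). The median transcript level of an array lay between 6.71 and 6.79, and ZT0 replicate 4 stood apart, with a median correlation with the other arrays across transcripts of 0.970. Dopamine neuron markers were present, with 6 of 7 above the median transcript level of 6.76 (Th, the rate-limiting enzyme of dopamine synthesis, averaged 7.76), as were 7 of 7 general neuronal and 7 of 8 astrocyte markers.

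Glycolysis turns glucose into pyruvate in the cytosol. Pyruvate then crosses into the mitochondrion and is converted to acetyl-CoA, which citrate synthase joins to oxaloacetate to start the citric acid cycle, whose reducing equivalents drive ATP synthesis. Brain tissue relies on glucose as its main fuel, glia and neurons share it unequally and exchange lactate, and mice are active in the dark phase. Of the 35 measured genes, 32 lay above the median transcript level and 25 above the 90th percentile of all transcripts. Pcx (pyruvate carboxylase), Pfkl (the liver-type phosphofructokinase) and Hk2 (hexokinase 2) were the 3 that did not exceed the median, with means of 6.50, 6.72 and 6.76.

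A 24-h cosine curve fitted with limma called none of the 35 genes rhythmic at an adjusted p under 0.05 (Benjamini-Hochberg over all transcripts), where 0.0299% of all transcripts were called. At an unadjusted p under 0.05, the cut-off of the study, 6 of 35 passed (17.1%), against 8.91% of all transcripts and 8.65% of transcripts above the median level. They were 3 of glycolysis (Hk1, Pgk1 and Aldoc), 3 of the cycle (Cs, Sucla2 and Mdh1) and 0 of pyruvate entry. All 6 had their fitted peak before ZT12, in the light phase, as did 48.4% of the transcripts with such a p. The fitted peak-to-trough fold had a median of 1.08 over the 35 genes and 1.07 over all transcripts, with a range over the genes of 1.02 to 1.47.

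**Figure D1:**
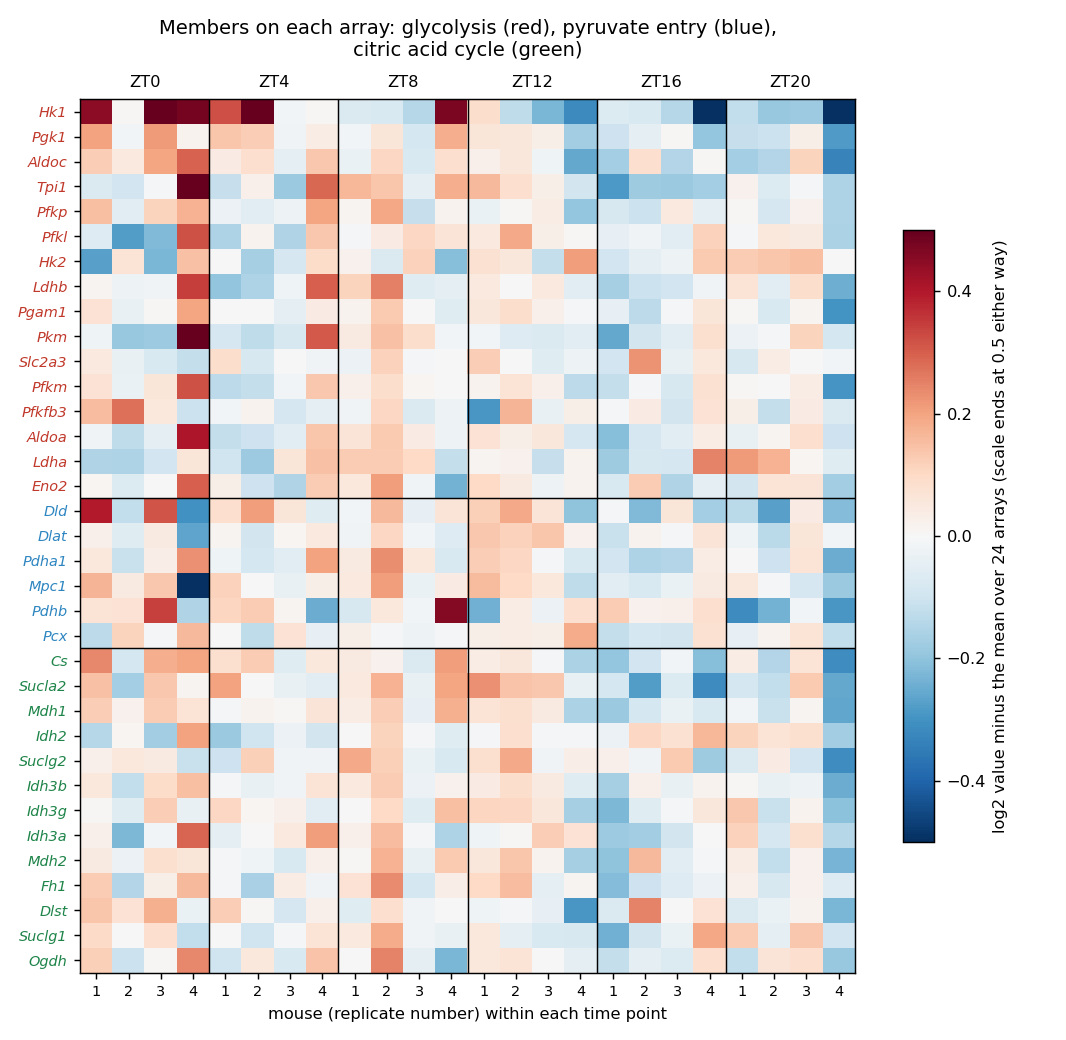
Log2 value minus the mean over 24 arrays for each of the 35 measured genes (rows, grouped into glycolysis, pyruvate entry and citric acid cycle and sorted by rhythm p within each) on each array (columns, 4 mice at each of 6 zeitgeber times). The colour scale ends at 0.5 either way; Hk1 is high on most arrays of ZT0 and ZT4, ZT0 replicate 4 is high for Tpi1 and Pkm and low for Mpc1 and Dld, and ZT20 replicate 4 is low for most genes.

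Hexokinases trap glucose in the cell by phosphorylating it, and Hk1 is the form that predominates in brain. On the probe set used for Hk1, the log2 level was 10.85, 10.41, 10.91 and 10.88 at ZT0, 10.73, 10.91, 10.39 and 10.41 at ZT4, and 10.33, 10.33, 10.26 and 10.87 at ZT8. In the dark phase it was 10.49, 10.28, 10.18 and 10.09 at ZT12, 10.34, 10.33, 10.26 and 9.85 at ZT16, and 10.28, 10.21, 10.22 and 9.89 at ZT20. The means ran downward at each step, with 10.76 at ZT0 and 10.15 at ZT20, and the 6 highest values came from ZT0 (3 arrays), ZT4 (2) and ZT8 (1).

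The fitted Hk1 curve peaked at ZT3.16 ± 0.85 (SE, in h) with a fold of 1.47 (unadjusted p = 0.000492, adjusted p = 0.208 by limma). In the early light (ZT0 and ZT4) Hk1 averaged 10.69, against 10.22 in the early dark (ZT12 and ZT16), a difference of 0.46 ± 0.10 (SE, 8 arrays on each side, adjusted p = 0.110). Of the 8 early light arrays, 5 exceeded every early dark array. This was the lowest adjusted p of any of the 35 genes in that comparison. When single arrays were left out, the difference ran from 0.40 (without ZT16 replicate 4) to 0.52 (without ZT0 replicate 2). The latter array held the lowest Hk1 value at ZT0, and its omission was the only one to bring the adjusted p under 0.05 (0.0205).

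A second Hk1 probe set did not show this course. The probe set above, picked by the rule of the highest mean, is annotated with 1 mRNA record that is not a RefSeq transcript. The other, annotated with 8 records that include RefSeq transcripts, averaged 8.02 and had a fold of 1.03 (adjusted p = 0.963). On that second probe set the early light arrays spanned 7.82 to 8.29 and the early dark arrays 7.87 to 8.16, a difference of -0.03 ± 0.06, so that the 2 phases overlapped throughout. The 2 probe sets correlated at r = -0.21 over the 24 arrays, which share RNA and normalization. The Hk1 values therefore describe 1 probe set and not the gene as a whole. Whether that probe set reports Hk1 mRNA at all was not tested. That probe set stands for Hk1 in the totals of the set. On the second probe set Hk1 would not be among the unadjusted calls by limma. Its unadjusted p there was 0.859 for the rhythm and 0.611 for early light against early dark. For ZT4 and ZT8 against ZT16 and ZT20 it was 0.724.

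**Figure D2:**
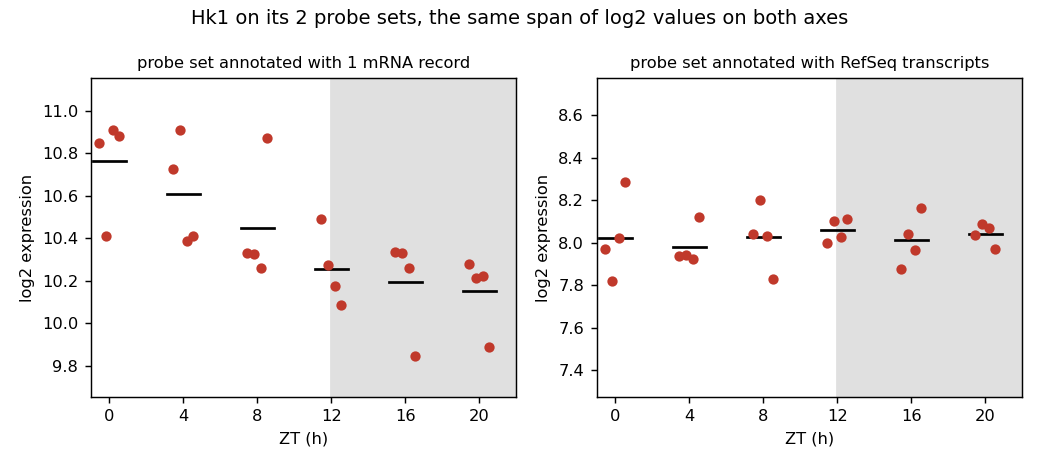
Log2 expression of Hk1 against zeitgeber time (h) on its 2 probe sets, with 1 point per mouse (4 per time), black bars for the mean of each time and grey for the dark phase, both axes covering the same span. The probe set with 1 mRNA record has means of 10.76 at ZT0 and 10.15 at ZT20, while the one with RefSeq transcripts has a fitted fold of 1.03.

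The ATP-yielding stage of glycolysis begins after aldolase and triosephosphate isomerase, and Pgk1 (phosphoglycerate kinase) carries out its first ATP-forming step. Pgk1 had log2 levels of 10.84, 10.63, 10.85 and 10.66 at ZT0, 10.78, 10.76, 10.62 and 10.68 at ZT4, and 10.63, 10.70, 10.55 and 10.82 at ZT8. In the dark phase they were 10.70, 10.70, 10.67 and 10.47 at ZT12, 10.54, 10.59, 10.64 and 10.44 at ZT16, and 10.52, 10.53, 10.67 and 10.35 at ZT20. The 2 lowest arrays were from ZT16 and ZT20, with overlap between every pair of neighbouring times. The fit gave a fold of 1.14 with a peak at ZT4.50 ± 1.30 (unadjusted p = 0.0230, adjusted p = 0.497). A further Pgk1 probe set with values of its own followed it at r = 0.99. Its unadjusted p by limma was 0.0396 for the rhythm and 0.0581 for early light against early dark. For ZT4 and ZT8 against ZT16 and ZT20 it was 0.0173. On that probe set Pgk1 would thus not be among the unadjusted early calls.

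Aldolase C (Aldoc), the aldolase that is prominent in astrocytes, ranged from 11.14 to 11.39 at ZT0, 11.05 to 11.23 at ZT4 and 11.02 to 11.20 at ZT8, and then from 10.84 to 11.15 at ZT12, 10.93 to 11.18 at ZT16 and 10.76 to 11.21 at ZT20. All 4 arrays at ZT0 exceeded 3 of the 4 arrays at ZT20, and the fourth ZT20 array lay within their range. Its early light mean was 11.21, against 11.04 in the early dark (difference 0.16 ± 0.06, unadjusted p = 0.0162, adjusted p = 0.375). Aldoa, the ubiquitous aldolase, differed by 0.04 ± 0.06 in the same comparison.

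Triosephosphate isomerase (Tpi1), which interconverts the triose phosphates made by aldolase, ran from 9.45 to 9.92 in the late light (ZT4 and ZT8, median 9.72) and from 9.35 to 9.66 in the late dark (ZT16 and ZT20, median 9.48). Of the 8 late light arrays, 5 exceeded all late dark arrays, and the difference was 0.18 ± 0.08 (unadjusted p = 0.0269, adjusted p = 0.589). Its single highest value, 10.20, was on ZT0 replicate 4, where the other 3 arrays at ZT0 held 9.54 to 9.63.

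Phosphofructokinase catalyses the committed step of glycolysis. Its platelet-type gene Pfkp differed by 0.10 ± 0.06 between early light and early dark, the muscle-type Pfkm by 0.06 ± 0.06 and the liver-type Pfkl by -0.08 ± 0.07, with adjusted p values of 0.528, 0.793 and 0.703. The lactate dehydrogenases Ldha and Ldhb, which favour lactate and pyruvate formation, differed by -0.03 ± 0.07 and 0.07 ± 0.07. Hk2, the hexokinase known for its induction by insulin in muscle, differed by -0.08 ± 0.07, with its 4 arrays at ZT0 spread from 6.48 to 6.90. None of these isozyme pairs was tested for a difference between its members.

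**Figure D3:**
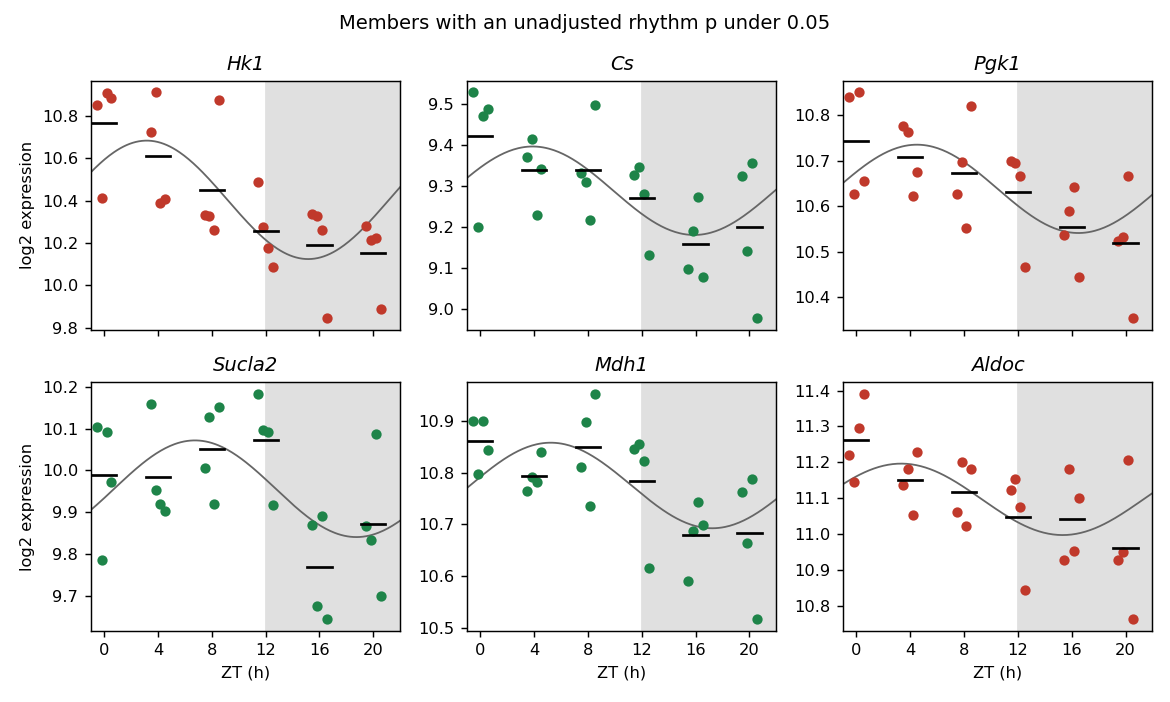
Log2 expression against zeitgeber time (h) of the 6 genes with an unadjusted rhythm p under 0.05, with 1 point per mouse (4 per time), black bars for the mean of each time, grey for the dark phase and the fitted 24-h curve as a line. Fitted peaks lie between ZT3.16 for Hk1 and ZT6.74 for Sucla2, and each vertical axis has its own range.

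Pyruvate entry is served by the mitochondrial pyruvate carrier (Mpc1), by pyruvate carboxylase (Pcx), which makes oxaloacetate, and by the pyruvate dehydrogenase complex, whose E1 (Pdha1, Pdhb), E2 (Dlat) and E3 (Dld) components make acetyl-CoA. The fitted peaks of 5 of the 6 genes fell between ZT6 and ZT12 and that of Dld at ZT5.82, with folds of 1.02 to 1.15 and adjusted p values of 0.658 to 0.958. Dld had log2 levels of 9.20 to 9.47 in the late light (median 9.33), against 8.99 to 9.32 in the late dark (median 9.11). The ranges overlapped, 4 of 8 late light arrays lay above all late dark arrays, and the difference was 0.17 ± 0.08 (unadjusted p = 0.0483, adjusted p = 0.646).

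Pdha1, the catalytic subunit of E1 that pyruvate dehydrogenase kinases phosphorylate, had a late light mean of 8.67 and a late dark mean of 8.55 (difference 0.12 ± 0.06, adjusted p = 0.680). Dlat held 8.33, 8.25, 8.35 and 8.04 on the 4 arrays at ZT0, against 8.44, 8.42, 8.45 and 8.33 at ZT12, the time of its highest mean. Its early light minus early dark difference was -0.08 ± 0.05 (adjusted p = 0.602). In the late comparison Dlat stood at 0.02 ± 0.05, and 6 of 6 pyruvate entry genes were above 0.

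Among cycle enzymes, citrate synthase (Cs), which catalyses the entry reaction, had log2 levels of 9.53, 9.20, 9.47 and 9.49 at ZT0, 9.37, 9.41, 9.23 and 9.34 at ZT4, and 9.33, 9.31, 9.22 and 9.50 at ZT8. In the dark phase they were 9.33, 9.35, 9.28 and 9.13 at ZT12, 9.10, 9.19, 9.27 and 9.08 at ZT16, and 9.32, 9.14, 9.36 and 8.98 at ZT20. In the early light 5 of 8 arrays exceeded all early dark arrays. The fold was 1.16 with a peak at ZT3.89 ± 1.28 (unadjusted p = 0.0207, adjusted p = 0.497), and the difference from the early dark was 0.16 ± 0.06 (adjusted p = 0.365).

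Succinyl-CoA ligase makes the only nucleoside triphosphate formed in the cycle itself. Its ADP-forming subunit gene Sucla2 had log2 levels of 10.10, 9.78, 10.09 and 9.97 at ZT0, 10.16, 9.95, 9.92 and 9.90 at ZT4, and 10.00, 10.13, 9.92 and 10.15 at ZT8. In the dark phase they were 10.18, 10.10, 10.09 and 9.92 at ZT12, 9.87, 9.68, 9.89 and 9.64 at ZT16, and 9.87, 9.83, 10.09 and 9.70 at ZT20. The highest mean was thus that of ZT12, the start of the dark phase, and the early difference was 0.06 ± 0.07. In the late dark 7 of 8 arrays lay below every late light array, and the difference was 0.20 ± 0.07 (unadjusted p = 0.00571, adjusted p = 0.505). This was the largest late difference after that of Hk1. Suclg2, the GDP-forming subunit, differed by 0.08 ± 0.06 and Suclg1, the shared alpha subunit, by 0.02 ± 0.06.

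Cytosolic malate dehydrogenase (Mdh1), part of the malate-aspartate shuttle that carries reducing equivalents into the mitochondrion, ran from 10.74 to 10.95 in the late light (median 10.80), against 10.52 to 10.79 in the late dark (median 10.69). In each phase 5 of 8 arrays lay outside the range of the other phase, and the difference was 0.14 ± 0.05 (unadjusted p = 0.0105, adjusted p = 0.521). The mitochondrial form, Mdh2, differed by 0.07 ± 0.06. The 3 subunits of NAD-dependent isocitrate dehydrogenase, Idh3a, Idh3b and Idh3g, had nearly equal late differences of 0.09 ± 0.06, 0.08 ± 0.05 and 0.08 ± 0.06, none past the threshold.

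NADP-dependent mitochondrial isocitrate dehydrogenase (Idh2), an NADPH source outside the NAD-linked cycle, was 1 of 2 cycle genes below 0 in the early comparison, beside Suclg2 (-0.03 ± 0.06), and the only one in the late comparison (-0.09 ± 0.06). It ranged from 7.60 to 7.99 in the early light (median 7.69), against 7.76 to 7.95 in the early dark (median 7.82), with a fitted peak at ZT15.5 ± 1.73. The difference was -0.11 ± 0.06 (unadjusted p = 0.0585, adjusted p = 0.513). The highest early light value was that of ZT0 replicate 4, and without this array the difference was -0.15 (unadjusted p = 0.00824).

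The light and dark differences of the whole set were read against those of all transcripts. In the early comparison 26 of 35 genes had a difference above 0 and 9 below it (47.5% of all transcripts were above 0, and 50.5% of transcripts above the median level). At an unadjusted p under 0.05, 4 were higher in the light (Hk1, Aldoc, Pgk1 and Cs) and 0 lower, where 4.67% of all transcripts were higher and 5.52% lower. That is 11.4% of the genes, against 10.2% of all transcripts and 9.76% of transcripts above the median level, and none passed after adjustment, against 0.0342% of all transcripts. The median difference was 0.05 for glycolysis, 0.01 for pyruvate entry and 0.04 for the cycle, and -0.01 for all transcripts.

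In the late comparison 30 of 35 genes were above 0 and 5 below it, with 49.8% of all transcripts and 61% of transcripts above the median level above 0. At an unadjusted p under 0.05, 8 were higher in the light (Hk1, Aldoc, Tpi1, Pgk1, Dld, Cs, Sucla2 and Mdh1) and 0 lower, where 3.66% of all transcripts were higher and 4.03% lower. That is 22.9% of the genes, against 7.69% of all transcripts and 7.39% of transcripts above the median level. After adjustment 0 of 35 passed, the lowest adjusted p being 0.454, and 0% of all transcripts passed. The medians were 0.06 for glycolysis, 0.10 for pyruvate entry and 0.08 for the cycle, against -0.00034 for all transcripts and 0.02 for those above the median level. Both comparisons use the arrays of ZT4 and ZT16, so they are not separate evidence.

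These signs depended on the scaling of the arrays. After a further quantile normalization 16 of 35 genes were above 0 in the early and 22 of 35 in the late comparison, with medians of -0.02 and 0.02, where 47.5% and 50.8% of all transcripts were above 0. By class, 7 of 16 genes of glycolysis, 4 of 6 of pyruvate entry and 5 of 13 of the cycle were then above 0 in the early comparison, and 8 of 16, 5 of 6 and 9 of 13 in the late one. Of the unadjusted rhythm calls, those of Hk1 (fold 1.34) and Sucla2 (fold 1.12) were still made, where 8.09% of all transcripts had such a p. In the early and late comparisons 2 and 1 of 35 genes had such a p, against 10% and 6.49% of all transcripts. Before that step the 90th percentile of the transcripts averaged 8.57 at ZT0 and ZT4, 8.56 at ZT8, 8.57 at ZT12, 8.53 at ZT16 and 8.51 at ZT20. Its part in the result was not tested further.

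**Figure D4:**
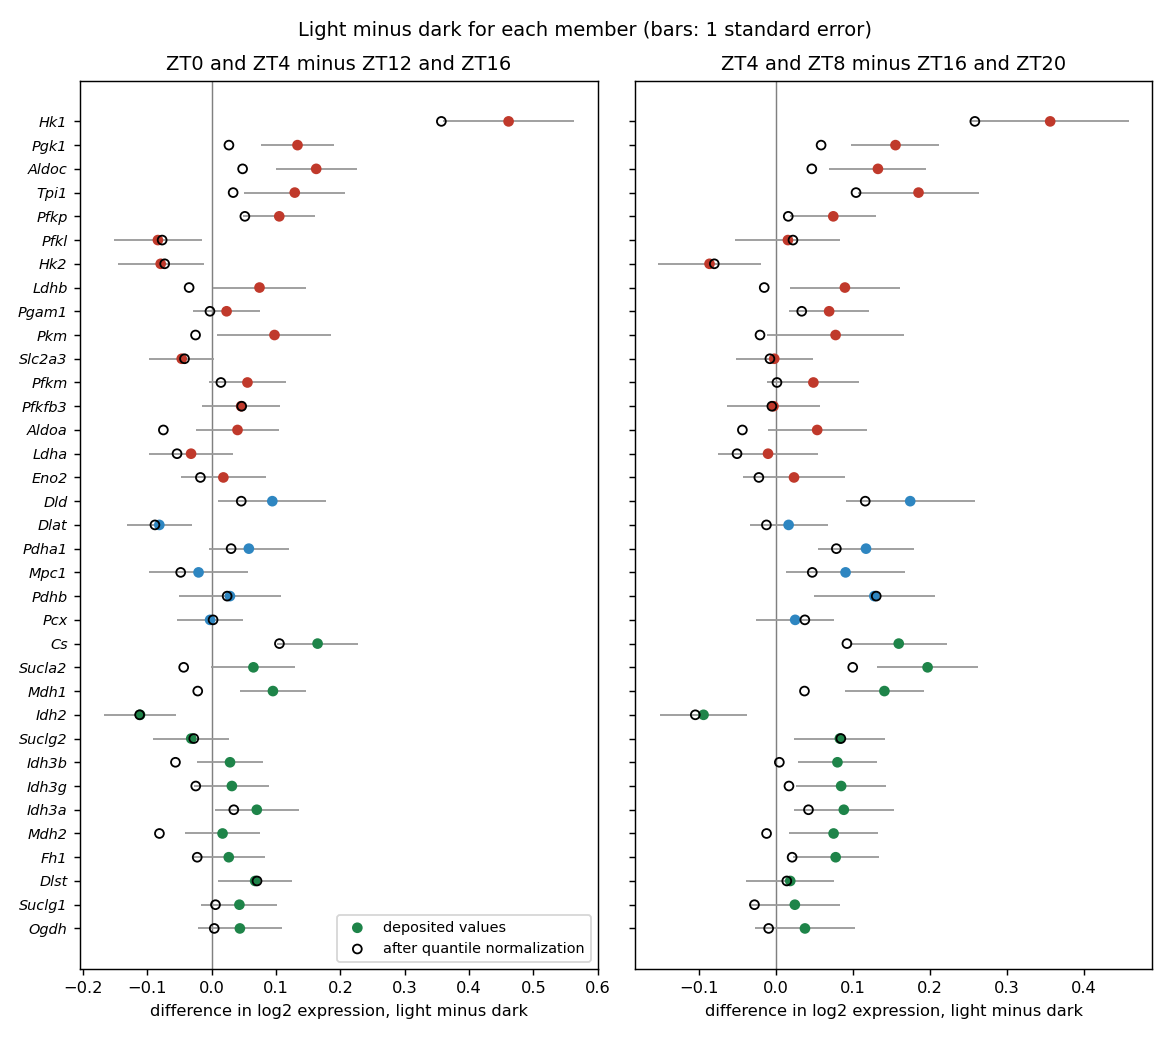
Difference in log2 expression, light minus dark, for each of the 35 genes (red glycolysis, blue pyruvate entry, green citric acid cycle) in the early (left) and late (right) comparison, with 8 arrays on each side, bars of 1 standard error and open circles for the values after a further quantile normalization. On the deposited values 26 and 30 of 35 genes lie right of 0, and after the normalization 16 and 22 do.

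The classes were also followed as the mean of their genes on each array, each gene centred on its own mean. Glycolysis stood at 0.07 ± 0.13 at ZT0, 0.01 ± 0.08 at ZT4, 0.03 ± 0.05 at ZT8, -0.00 ± 0.05 at ZT12, -0.06 ± 0.05 at ZT16 and -0.05 ± 0.10 at ZT20 (mean ± SD, n = 4). The cycle ran at 0.04 ± 0.07, 0.00 ± 0.02, 0.04 ± 0.07, 0.02 ± 0.07, -0.05 ± 0.06 and -0.05 ± 0.11 at the same times. Pyruvate entry stood at 0.02 ± 0.13, 0.01 ± 0.03, 0.05 ± 0.06, 0.04 ± 0.05, -0.03 ± 0.04 and -0.09 ± 0.09. On the deposited values all 3 classes were thus lowest at ZT16 or ZT20, by amounts close to the spread between mice. These courses were not recomputed after the further quantile normalization, on which the signs above depended. Of single genes, 15 of 35 had their highest mean at ZT0 and 9 at ZT8, while 14 had their lowest at ZT16 and 13 at ZT20. The shares of all transcripts with these times were not counted, so the counts are not read as a trait of the set.

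Fitted peaks differed in place between the classes as a description. Between ZT2 and ZT6 lay 10 of 16 peaks of glycolysis, 1 of 6 of pyruvate entry and 5 of 13 of the cycle. Between ZT6 and ZT12 lay 2, 5 and 6, and from ZT12 on 4, 0 and 1. Before ZT12 lay 30 of 35 peaks, against 49.8% of those of all transcripts, and shares of all transcripts were not counted for the narrower windows. These are peaks on the deposited values and were not counted after a further quantile normalization. Most of these peaks belong to curves that passed no test, and the difference between classes was not tested.

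On the deposited values, neuronal markers were also lowest at ZT16 and ZT20. The 7 neuronal markers (Snap25, Syt1 and others), centred in the same way, stood at 0.04, 0.01, 0.04, 0.03, -0.04 and -0.08 over the 6 times. In the late comparison 7 of 7 were above 0 (median 0.08), and 2 had an unadjusted p under 0.05, against 7.69% of all transcripts. These signs also depended on the scaling. After the quantile normalization the late differences were -0.009 for Snap25, -0.02 for Syt1, -0.01 for Nefl and -0.01 for Tubb3. Those of Rbfox3, Nefm and Stmn2 were 0.02, 0.03 and 0.07. Their mean level per array spanned 10.59 to 10.72 in the late light and 10.43 to 10.61 in the late dark. The 6 oligodendrocyte markers stood at 0.06, -0.00, 0.00, 0.06, -0.04 and -0.08, with mean levels per array of 9.02 to 9.22 in the late light and 8.94 to 9.13 in the late dark, a late median of 0.05, and 2 of 6 at an unadjusted p under 0.05. The 8 astrocyte markers stood at 0.03, 0.07, 0.02, 0.01, -0.08 and -0.05, and of these Fabp7 alone passed the adjusted rhythm test (8.83 at ZT4 and 7.73 at ZT16 on average, adjusted p = 0.00785). The mean of the other 7, set apart after the values of Fabp7 were seen, stayed between -0.02 and 0.02 at every time, with mean levels per array of 8.67 to 8.84 in the late light and 8.59 to 8.83 in the late dark. Their part in the values of the enzymes was not tested. The 7 dopamine neuron markers stood at -0.08, 0.01, 0.03, -0.03, -0.02 and 0.09 over the 6 times, highest at ZT20. Their mean level per array spanned 7.35 to 7.64 at ZT0 and 7.57 to 7.80 at ZT20. They had a late median of -0.02, with 3 of 7 above 0.

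**Figure D5:**
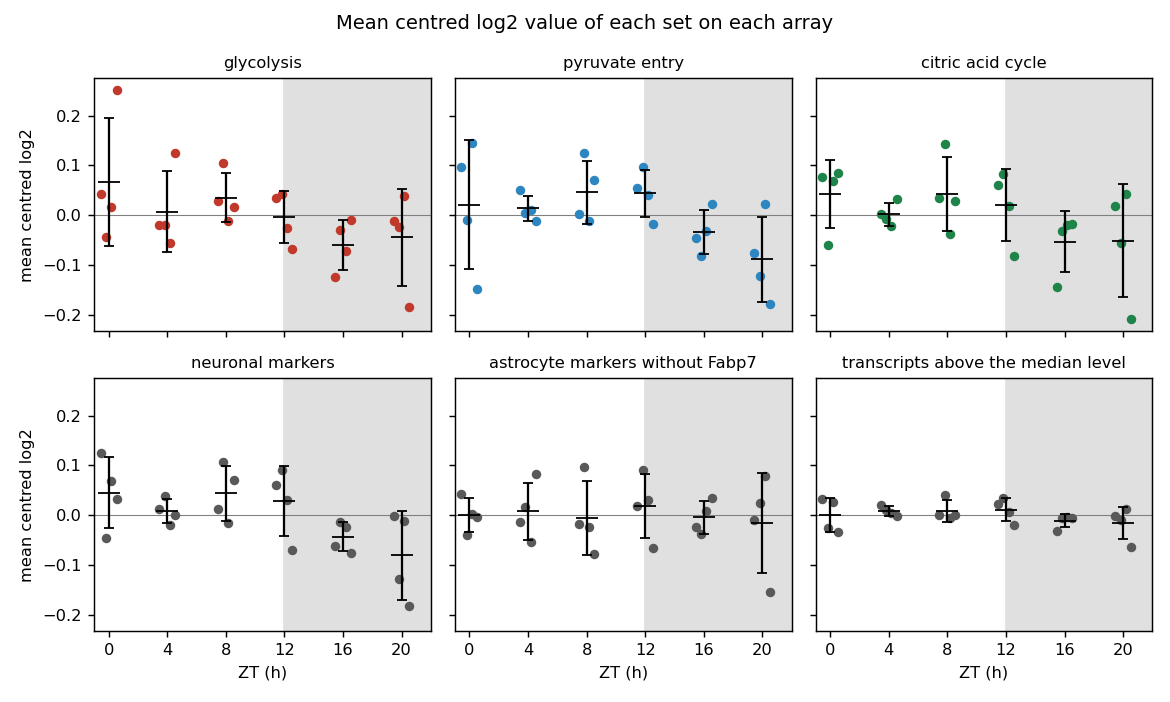
Mean centred log2 value of each gene class and marker list on each array against zeitgeber time (h), with 1 point per mouse, black bars for the mean and SD of the 4 mice at each time and grey for the dark phase. On the deposited values the 3 enzyme classes and the neuronal markers lie lowest on average at ZT16 and ZT20. The astrocyte markers without Fabp7 and the transcripts above the median level stay within 0.02 of 0 on average. The transcripts above the median level are also lowest at ZT16 (-0.01) and ZT20 (-0.02).

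A pair of arrays carried much of the spread. On ZT0 replicate 4, 12 of 35 genes had their highest and 4 their lowest value of all 24 arrays. Glycolysis stood there at 0.25 and pyruvate entry at -0.15, with Pkm, the pyruvate kinase gene, at 11.13 (10.30 to 10.47 on the other 3 arrays at ZT0) and Mpc1 at 8.12 (8.72 to 8.85). Without this array 8 of 35 genes had an unadjusted rhythm p under 0.05 (9.09% of all transcripts), since Pfkl, Tpi1 and Idh2 were added and Aldoc was lost. The early comparison then held 7 (11.1% of all transcripts), namely 5 higher in the light and Pfkl and Idh2 lower (both -0.15).

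On ZT20 replicate 4, 33 of 35 genes lay below the mean of their time and 11 had their lowest value of all arrays, where the neuronal markers stood at -0.18, the oligodendrocyte markers at -0.15 and the astrocyte markers without Fabp7 at -0.16. Without it 5 of 35 genes had an unadjusted p under 0.05 in the late comparison (6.07% of all transcripts), 4 higher in the light (Hk1, Pgk1, Sucla2 and Mdh1) and Idh2 lower (-0.13), and 27 of 35 were above 0. On ZT20 replicate 3, from the same time, 33 of 35 genes lay above that mean.

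Other genes around the pathway, 50 of 55 measured, were counted in the same way. In the early comparison 20 of 50 and in the late 26 of 50 were above 0, with medians of -0.02 and 0.01. At an unadjusted p under 0.05, 4 of 50 were rhythmic, close to the 8.91% of all transcripts, and 0 passed after adjustment. Slc2a1 (GLUT1, the glucose transporter of brain vessels and astrocytes) peaked at ZT13.4 ± 0.99 with a fold of 1.19 (adjusted p = 0.350). Its mean was 8.43 ± 0.04 at ZT0 and 8.39 ± 0.09 at ZT4, against 8.69 ± 0.15 at ZT12 and 8.56 ± 0.15 at ZT16 (SD, n = 4), a difference of -0.22 ± 0.06 (adjusted p = 0.215), and -0.235 after the quantile normalization.

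Pdk4, a kinase that inhibits pyruvate dehydrogenase, peaked at ZT16.6 ± 1.20 with a fold of 1.19 (adjusted p = 0.450) and a late difference of -0.20 ± 0.07, while Pdk1, Pdk2 and Pdk3 differed by -0.11, 0.04 and 0.06. Ldhd, the D-lactate dehydrogenase, peaked at ZT22.6 ± 1.04 with a fold of 1.17 (adjusted p = 0.390). Sdha, the flavoprotein subunit of succinate dehydrogenase, peaked at ZT5.30 ± 1.43 with a fold of 1.14 (adjusted p = 0.545), the only one of these 4 with its peak before ZT12. After the quantile normalization its fold was 1.06 (unadjusted p = 0.295) and its late difference 0.07. Of the other subunits, Sdhb, Sdhc and Sdhd had late differences of -0.03, 0.03 and 0.09, against 0.16 for Sdha.

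The 250 bases before the gene start were searched on both strands for motifs of clock and glycolytic regulation. This covered 33 of the 35 genes and 27025 genes in all, with sequences from RefSeq (GRCm38.p6). Where a gene had several starts, only the most upstream one was searched, and which start is used in the VTA was not tested. The E-box CACGTG, the site of CLOCK and BMAL1, was in 3 of 33 (9.09%), against 6.04% of all genes. The core ACGTG, which the E-box contains and hypoxia-inducible factor binds, was in 11 of 33 (33.3%), against 16.5%. The D-box TTATGTAA was in 0 of 33 (0.862% of all genes), the NRF1 palindrome in 0 (0.777%), the nuclear receptor element AGGTCA in 3 (13.8%) and the cyclic AMP response element TGACGTCA in 3 (1.6%). The E-box genes were Ldha, Pcx and Pfkm, with rhythm folds of 1.03, 1.02 and 1.05 (unadjusted p = 0.885, 0.844 and 0.615). Pgk1 and Mdh1 were the only genes of the 6 with an unadjusted rhythm p under 0.05 to hold ACGTG in this window, and neither holds the E-box.

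The windows of Pfkm and Pcx are shown for the E-box in genes with flat profiles and those of Pgk1 and Mdh1 for the core in genes with light-phase peaks. They lie at chr15:98092339-98092588 (plus strand), chr19:4510222-4510471 (plus), chrX:106186850-106187099 (plus) and chr11:21571935-21572184 (minus), read 5′ to 3′ toward the gene, with ACGTG on either strand in capitals (an E-box shows as CACGTG).
Pfkm: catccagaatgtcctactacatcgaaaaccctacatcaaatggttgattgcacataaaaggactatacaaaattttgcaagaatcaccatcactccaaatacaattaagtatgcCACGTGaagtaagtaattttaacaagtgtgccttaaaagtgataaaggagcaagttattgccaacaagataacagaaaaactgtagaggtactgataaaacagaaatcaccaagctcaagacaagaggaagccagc
Pcx: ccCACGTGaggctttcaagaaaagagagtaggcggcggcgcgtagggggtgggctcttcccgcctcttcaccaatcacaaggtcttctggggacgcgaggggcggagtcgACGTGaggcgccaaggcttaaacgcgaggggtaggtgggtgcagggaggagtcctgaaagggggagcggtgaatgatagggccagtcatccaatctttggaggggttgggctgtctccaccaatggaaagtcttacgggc
Pgk1: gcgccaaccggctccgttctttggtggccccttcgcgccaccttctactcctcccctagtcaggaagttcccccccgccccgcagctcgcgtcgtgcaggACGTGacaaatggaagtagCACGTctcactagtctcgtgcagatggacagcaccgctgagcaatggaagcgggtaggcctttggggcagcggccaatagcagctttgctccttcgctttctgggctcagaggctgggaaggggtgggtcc
Mdh1: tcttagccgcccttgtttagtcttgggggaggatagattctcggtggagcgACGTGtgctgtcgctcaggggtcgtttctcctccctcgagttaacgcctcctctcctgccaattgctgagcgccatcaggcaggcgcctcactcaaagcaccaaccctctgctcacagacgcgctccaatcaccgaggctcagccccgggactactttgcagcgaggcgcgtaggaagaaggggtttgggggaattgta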

How the data were processed

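VTA punches of 24 male mice were hybridized to GeneChip Mouse Gene 1.0 ST arrays, 1 per mouse. The authors deposited log2 values made, per the labels, with RMA in R 2.13.1 (a method that corrects background, quantile-normalizes arrays and summarizes probes by median polish), ranging from 2.27 to 14.1. Further division by the mean of each gene, as the methods of the study describe, is not in these values, and CircWave was replaced by limma 3.58.1 in R 4.3.3. Plots used matplotlib 3.10.9.

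All 23410 transcripts were fitted. Rhythms were tested with the moderated F-test on the cosine and sine of ZT (24-h period), and light was compared with dark in a fit of the 6 times as groups. Both comparisons have 8 arrays on each side. The Benjamini-Hochberg adjustment ran over all transcripts in each test. The fits were tested on simulated data with noise drawn independently for each transcript and array. Shifts shared by many genes of an array were therefore not covered. Differences carry their standard error, and the number of arrays limits the precision.

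The genes and lists were chosen with earlier results of these data known. Genes named are those with the smallest rhythm p of each class, those with the largest differences, and the isozyme and subunit sets. Pkm, Mdh2, the other pathway genes and the arrays described singly were picked after their values were seen. Symbols came from the array annotation, updated through the RefSeq gene table. Alternatives were other tests, scalings, probe sets and filters, the replicate block, and omission of single arrays or of whole time points.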

Additional observations from a re-analysis of the deposited data

Results flagged for a closer look

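In 15 of 108 groups of 4 arrays (15 named genes and 3 class means at 6 times), 1 array lay far from the other 3 by Dixon's criterion, which chance meets in about 1 group in 20. Hk1 held 10.41 on ZT0 replicate 2 (others 10.85 to 10.91), 10.87 on ZT8 replicate 4 (others 10.26 to 10.33) and 9.85 on ZT16 replicate 4 (others 10.26 to 10.34). Tpi1 held 10.20 on ZT0 replicate 4 (others 9.54 to 9.63) and 9.35 on ZT16 replicate 1 (others 9.45 to 9.47). Hk2 held 6.76 on ZT20 replicate 4 (others 6.89 to 6.91), and Idh2 held 7.61 on the same array (others 7.85 to 7.90).

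On ZT12 replicate 4, Pgk1 held 10.47 (others 10.67 to 10.70) and Mdh1 10.62 (others 10.82 to 10.86). At the same time Ldha held 8.47 on replicate 3 (others 8.60 to 8.61) and Idh2 7.87 on replicate 2 (others 7.78 to 7.78). Ldha also held 8.47 on ZT8 replicate 4 (others 8.69 to 8.72), and Pfkp 9.33 on ZT4 replicate 4 (others 9.08 to 9.11). The mean of the cycle genes was 8.94 on ZT0 replicate 2 (others 9.07 to 9.08) and 8.85 on ZT16 replicate 1 (others 8.97 to 8.98).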

How the results depend on the processing

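The 15 named genes gave 45 values (a fold and 2 differences each), with 1644 recomputed values over 43 settings. Of these, 1624 kept their side of the adjusted threshold and, for a difference, their sign. A fold cannot change sign, and no value passed the threshold in the main fit. The count therefore does not measure whether sizes held, and early Aldoc, for example, fell from 0.16 to 0.05 after the quantile normalization. No gene passed the adjusted rhythm test or late comparison under any setting run. In the early comparison Hk1 passed with array weights (difference 0.47, adjusted p = 0.0381), giving a count of 1 with 7 at an unadjusted p under 0.05, and without ZT0 replicate 2 (0.52, adjusted p = 0.0205). After the quantile normalization the unadjusted counts were 2 for rhythms, 2 early and 1 late, where 8.09%, 10% and 6.49% of all transcripts passed. The unadjusted rhythm count was 3 with time point as a factor, 3 without all arrays of ZT8 and 1 without all arrays of ZT16. The cause of these shifts was not tested. Shares of all transcripts were not counted with array weights, the factor, the replicate block, omitted time points or most omitted single arrays.

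When 1 array was left out, the adjusted early count ran from 0 to 1, and unadjusted counts ran from 4 to 8 for rhythms, 3 to 7 early (7 without ZT0 replicate 4) and 5 to 9 late (5 without ZT20 replicate 4). The replicate number as a block gave 5 unadjusted rhythm calls, 4 early calls and 0 adjusted calls, with Hk1 at an adjusted p of 0.117 in the early comparison. Deviations of same-numbered arrays correlated between -0.30 and 0.58, against -0.50 to 0.33 for different numbers. The value of 0.58 came from arrays of replicate 4, whose median over 15 pairs was 0.06. Of the 24 arrays, 8 correlated best with their own number. Whether the numbers pair the mice was not settled.

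Some signs turned. Hk1 was -0.0324 early and -0.0224 late on its other probe set (an alternative chosen after seeing the data). After the quantile normalization Mdh1 was -0.0219 early (0.10 ± 0.05 before it) and Sucla2 -0.0437, and Dlat -0.0128 late. Late Pfkl was -0.00717 with array weights and ran from -0.0137 (without ZT4 replicate 4) to 0.0344 when 1 array was left out. Over the same omissions late Dlat ran from -0.00167 to 0.0308, late Ldha from -0.0380 to 0.0345 and early Ldha from -0.0596 to 0.0130. The early comparison could not be run without ZT0, ZT4, ZT12 or ZT16, nor the late one without ZT4, ZT8, ZT16 or ZT20. Class medians after the quantile normalization were -0.01 for glycolysis, 0.01 for pyruvate entry and -0.02 for the cycle early, and -0.0024, 0.06 and 0.02 late.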
